A study of Mus musculus with 14 samples.

Results

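Between 0.1 and 10 Mb from the deleted Hoxa stretch, on both sides of it, chromosome 6 held 480 of the 74458 H3K27me3 peaks in the deposited count table. H3K27me3 is the trimethylated lysine of histone H3 that Polycomb repressive complex 2 deposits, and Cut&Tag maps it by tethering the transposase Tn5 to the antibody. The deletion was located in the counts as the 46 consecutive peaks, from 52163046 to 52274461 (mm10), in which all Hoxa deletion libraries held under 10% of the level of the others. Peaks were then taken by their distance from it, not by their own values, although the distance range was set with earlier results of these data known. Toward lower coordinates, the side of Skap2, lay 263 of them (the low side), and toward higher coordinates, the side of Hibadh, lay 217 (the high side). The first peak started at 42174104 and the last ended at 62088752.

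The cells were G4 mouse embryonic stem cells (mESCs), a wild-type line from a cross of 129/Sv and C57BL/6, in which CRISPR-Cas guides had removed Hoxa2 to Hoxa13, Wnt6 and its neighbours, or Hmx1. All were grown with LIF on CD1 feeder cells, and all groups carried some deletion of a Polycomb loop anchor. The Hoxa deletion had 3 libraries, and the Wnt6 and Hmx1 deletions, on other chromosomes, had 2 each. There was no column for unedited cells, so the Hoxa deletion was set against both other deletions pooled. The labels name no clones and nothing states separate cultures. A difference between deletions and one between clones therefore cannot be told apart, and p-values measure only the spread between these libraries, which may be technical.

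Polycomb repressive complex 2, with EZH2 as its methyltransferase, marks promoters rich in CG dinucleotides at developmental genes that are silent in mESCs. The Hoxa cluster is a textbook Polycomb domain, and the study asked if cutting out such an anchor changes the mark along the rest of the chromosome. The mark over 8 lineage genes that mESCs keep silent, such as Sox17 and Neurog1, had a median of 40.7 CPM per kb of gene, where CPM stands for counts scaled to a common library total with TMM factors. It was 0.459 over 8 pluripotency genes, 3 of which had no peak, and 3.58 over 8 fibroblast genes of the feeder type, 2 of which had no peak. Library totals ran from 6016500 to 36563541 counts, and the peaks described here took 0.618% to 0.672% of them. The median one had 22.5 to 146 counts per library, and 123 of the 480 had under 10 counts in some library. Chromosome 8 was lower as a whole in the Hoxa deletion libraries, with a median log2 fold change of -0.59, and background shares of lower peaks are therefore also given without it.

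The peaks were 469.5 bp wide at the median (208 to 3188 bp). In RefSeq annotation of GRCm38.p6, 267 lay in a protein-coding gene, 86 overlapped the window from 250 bases before to 50 after a gene start, and 208 did neither. Exons and introns were not told apart. Of 185 protein-coding genes in the region, 106 held at least 1 peak. The mean level over all 7 libraries had a median of 16.6 CPM for the 86 promoter peaks, 3.50 CPM for 186 peaks elsewhere in genes and 2.66 CPM for the other 208. The 90 promoter windows that a peak overlapped held a median of 18 CG dinucleotides, and 48.9% of them held 20 or more. The 101 windows of the region with no peak held a median of 2, and 10.9% held 20 or more, against a median of 7 and 26.5% among all 32851 windows in the table.

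The 250 bases upstream of 6 of these genes are shown because the peaks over them stand for the patterns described next. At Zfp956 and Zfp282 the mark was higher in the Hoxa deletion and at Nod1 it was lower. At Nap1l5 it was nearly missing in the Hmx1 deletion, and Tril and Npy had strong peaks with little difference. Sequences are from RefSeq (GRCm38.p6), read 5′ to 3′ on the strand of the gene, with capitals for CG dinucleotides, a motif that reads the same on both strands. Zfp956 (chr6:47953140-47953389, plus strand) has 11 of them, Zfp282 (chr6:47877305-47877554, plus strand) 18, Nod1 (chr6:54972613-54972862, minus strand) 12, Nap1l5 (chr6:58907127-58907376, minus strand) 10, Tril (chr6:53820826-53821075, minus strand) 20 and Npy (chr6:49822460-49822709, plus strand) 21. At least as many were found in 35.6%, 21.7%, 33.5%, 37.8%, 17.9% and 16.3% of all promoters over the same 250 bases, in the same order.
Zfp956: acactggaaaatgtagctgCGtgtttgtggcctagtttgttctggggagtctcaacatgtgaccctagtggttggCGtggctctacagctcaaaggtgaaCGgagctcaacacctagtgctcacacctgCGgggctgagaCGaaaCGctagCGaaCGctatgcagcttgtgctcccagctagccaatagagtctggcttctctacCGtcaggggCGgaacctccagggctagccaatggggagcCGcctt
Zfp282: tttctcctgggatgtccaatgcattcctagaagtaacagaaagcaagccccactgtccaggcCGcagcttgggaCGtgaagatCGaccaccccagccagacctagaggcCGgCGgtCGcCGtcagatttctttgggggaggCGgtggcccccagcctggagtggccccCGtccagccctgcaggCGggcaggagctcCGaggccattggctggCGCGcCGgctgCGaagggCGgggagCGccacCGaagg
Nod1: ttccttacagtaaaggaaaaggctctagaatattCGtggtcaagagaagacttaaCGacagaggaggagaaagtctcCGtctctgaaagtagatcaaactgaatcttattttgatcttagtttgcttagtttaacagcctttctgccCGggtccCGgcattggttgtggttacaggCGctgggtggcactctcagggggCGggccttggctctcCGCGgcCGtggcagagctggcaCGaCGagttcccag
Nap1l5: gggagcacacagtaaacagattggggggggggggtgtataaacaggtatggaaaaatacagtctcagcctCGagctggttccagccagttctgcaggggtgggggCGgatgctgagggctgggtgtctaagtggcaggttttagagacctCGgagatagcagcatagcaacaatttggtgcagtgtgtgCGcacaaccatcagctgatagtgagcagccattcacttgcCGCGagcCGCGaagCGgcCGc
Tril: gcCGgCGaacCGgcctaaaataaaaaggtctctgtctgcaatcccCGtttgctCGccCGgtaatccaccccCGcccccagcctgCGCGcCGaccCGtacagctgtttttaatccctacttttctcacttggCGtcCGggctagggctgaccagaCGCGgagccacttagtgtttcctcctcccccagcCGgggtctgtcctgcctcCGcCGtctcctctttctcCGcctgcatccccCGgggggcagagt
Npy: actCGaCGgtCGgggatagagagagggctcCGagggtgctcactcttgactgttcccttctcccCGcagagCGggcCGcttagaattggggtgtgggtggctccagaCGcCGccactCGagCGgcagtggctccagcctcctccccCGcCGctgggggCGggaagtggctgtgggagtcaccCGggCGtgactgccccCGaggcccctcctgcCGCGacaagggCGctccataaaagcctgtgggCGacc
Of the 6, Npy and Tril had the most CG dinucleotides and Nap1l5 the fewest. The 6 were picked for their patterns, so no relation between CG count and change can be read from them.

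Levels of H3K27me3 on the low side were higher in every Hoxa deletion library than in any other. Summed over the 263 peaks, they were 3968, 3799 and 3852 CPM in the Hoxa deletion, 3581 and 3251 CPM in the Wnt6 deletion and 3383 and 3401 CPM in the Hmx1 deletion. The log2 difference was 0.19. On the high side the sums were 2868, 2716 and 2765 CPM in the Hoxa deletion, 2958 and 2732 CPM in the Wnt6 deletion and 2917 and 2870 CPM in the Hmx1 deletion, and the groups overlapped. The ratio of low to high side was 1.38, 1.40 and 1.39 in the Hoxa deletion, and between 1.16 and 1.21 in the other 4 libraries.

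**Figure D1:**
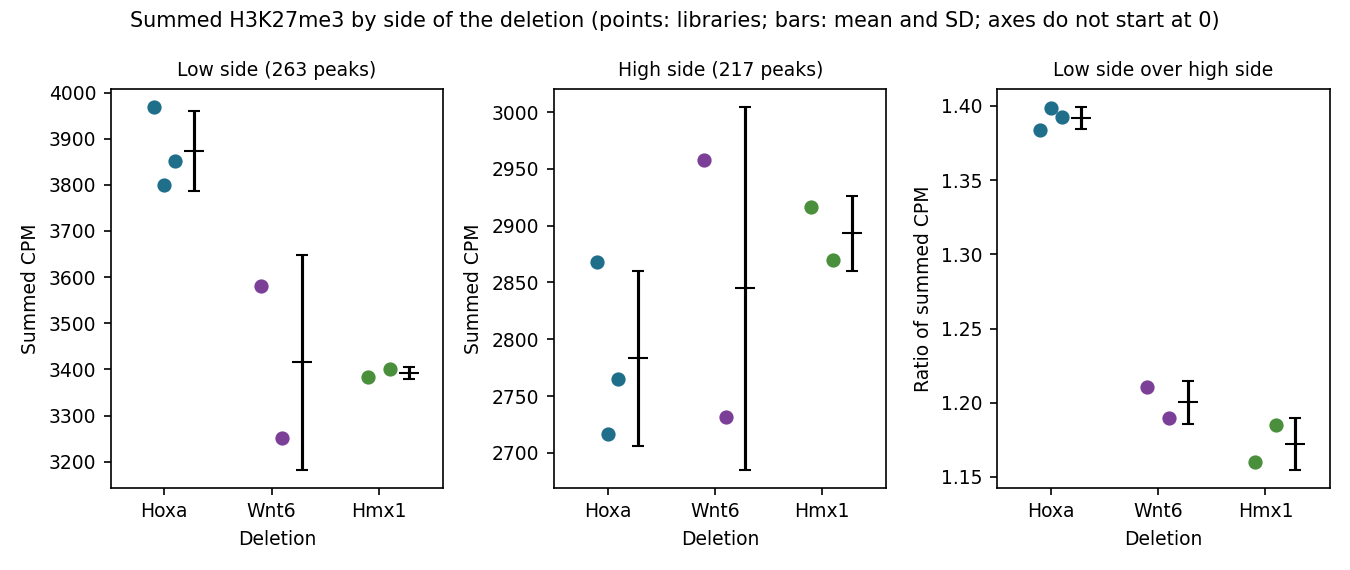
Summed H3K27me3 (CPM) of the 263 low-side peaks, the 217 high-side peaks and their ratio, by deletion. Points are libraries, and bars give mean and SD (n = 3, 2 and 2); the Hoxa libraries lie above all others on the low side (3799 to 3968 against 3251 to 3581 CPM) and overlap with them on the high side.

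All 480 peaks were tested in edgeR's quasi-likelihood fit over the whole table, and a call needed an adjusted p (Benjamini-Hochberg) under 0.05 together with a log2 fold change over 1 in size. Called higher in the Hoxa deletion were 7, where the background was 0.566% of 74441 tested peaks, and called lower were 6, where it was 0.983%, or 0.289% without chromosome 8. By side, 5 (1.90%) were higher and 1 (0.380%) lower on the low side, against 2 (0.922%) higher and 5 (2.30%) lower on the high side. These counts rest on few places. The zinc finger genes described below held 3 of the 5 higher peaks of the low side. Several of the 5 lower peaks of the high side lay at Nod1. Without Wnt6 replicate 2 the count of higher peaks rose to 13, and without Hoxa replicate 3 to 11. On the adjusted p alone, 39 peaks were higher, with a background of 4.32%, and 11 lower, with 4.20%, or 1.24% without chromosome 8. Of these, 31 higher and 3 lower peaks were on the low side and 8 and 8 on the high side. These are the peaks said below to have passed, risen or fallen.

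Fold changes of all 480 peaks had a median of 0.08 on the log2 scale, against -0.01 over all tested peaks and 0.02 over those not on chromosome 8. Above 0 were 60.8% of the 480, against 49.2% of all tested peaks and 52.9% of those not on chromosome 8. The low side had a median of 0.15 with 68.1% above 0, and it stayed above 0 in every alternative run. The high side had a median of 0.01 with 52.1% above 0, a value that turned to -0.02 when TMM factors left out chromosome 8 and to -0.01 without Hoxa replicate 2 or without Wnt6 replicate 1. All 3 Hoxa libraries lay above all 4 others at 77 peaks, where the background was 9.09%, and below them at 28, where it was 9.19%, or 5.59% without chromosome 8, close to the 5.83% of the 480. On the low side these were 59 and 10 of 263 peaks, and on the high side 18 and 18 of 217. For comparison, the 3436 tested peaks on chromosome 6 over 10 Mb from the stretch had a median of 0.01 in the same contrast. Of those, 1.43% were called higher and 7.10% passed as higher, against 1.46% and 8.12% of the 480, so higher calls were about as common there. The 451 and 765 tested peaks 0.1 to 10 Mb from the Wnt6 and Hmx1 deletions had a median of -0.01 each. The difference between these regions was not tested.

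The low-side excess was found mainly between 2 and 5 Mb from the stretch. Of the 131 peaks there, 30 rose (22.9%), 5 of them called (3.82%), and none fell. No overlap between the groups was seen at 51 (38.9%) in the upward direction against 1 in the other. Over all tested peaks 4.32% rose, 0.566% were called higher and 9.09% had all Hoxa libraries above. On chromosome 6 over 10 Mb from the stretch these shares were 7.10%, 1.43% and 12.2%. The 131 peaks had a median of 0.30, and 85.5% lay above 0. The median difference of each library from the mean of the 4 others was 0.33, 0.26 and 0.25 in the Hoxa deletion and between -0.01 and 0.03 in the rest. Against the Wnt6 deletion alone the median was 0.27, and against the Hmx1 deletion alone 0.29, while the Wnt6 deletion differed from the Hmx1 deletion by -0.03. In windows of 1 Mb, the 63 peaks between 4 and 5 Mb had a median of 0.36 with 18 that rose, the 54 between 3 and 4 Mb one of 0.20 with 9, and the 14 between 2 and 3 Mb one of 0.51 with 3. Beyond 5 Mb the excess was not seen, with a median of -0.06 over 70 peaks, of which 2 fell and none rose.

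**Figure D2:**
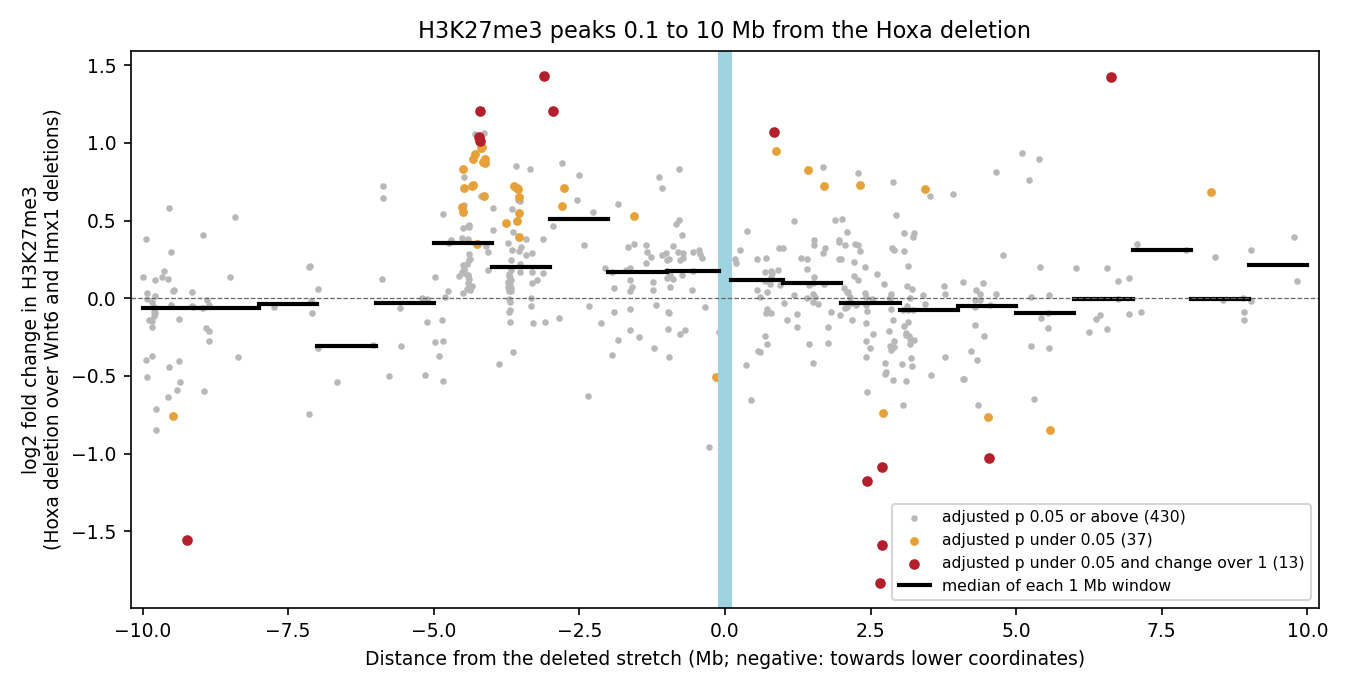
Log2 fold change of H3K27me3 (Hoxa deletion over the Wnt6 and Hmx1 deletions) at the 480 peaks by distance from the deleted stretch in Mb, negative toward lower coordinates. Red points were called (13), orange points passed on adjusted p alone (37), and black bars are medians of 1 Mb windows; most coloured points above 0 lie 2 to 5 Mb away on the low side, and the lowest points lie near 2.7 Mb on the high side.

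Closer to the stretch, medians were 0.17 at 1 to 2 Mb (29 peaks), 0.17 at 0.5 to 1 Mb (26 peaks) and -0.06 at 0.1 to 0.5 Mb (7 peaks) on the low side. On the high side they were 0.24 at 0.1 to 0.5 Mb (6 peaks), 0.10 at 0.5 to 1 Mb (24 peaks), 0.10 at 1 to 2 Mb (38 peaks), -0.04 at 2 to 5 Mb (112 peaks) and 0.00 at 5 to 10 Mb (37 peaks). The high side at 2 to 5 Mb lies at the same distances as the low-side excess. There 2 peaks rose (1.79%) and 7 fell (6.25%), 5 of them called (4.46%). Several of the 7 were neighbouring peaks at Nod1 and Ggct, 2.67 to 2.72 Mb away, which count separately. Without chromosome 8, 1.24% of all tested peaks fell and 0.289% were called lower. At 1 to 2 Mb on the high side the Wnt6 libraries, at 0.10 and 0.09, came close to Hoxa replicate 1 at 0.10, so the groups did not stand apart there.

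**Figure D3:**
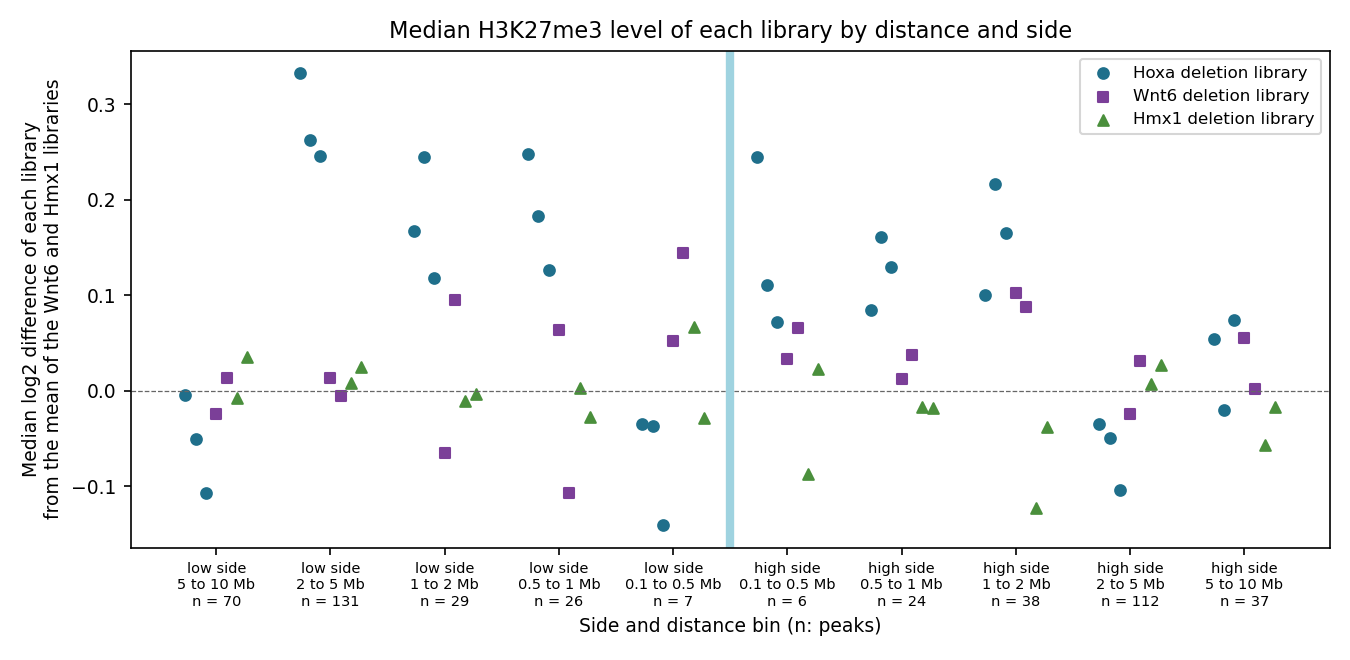
Median log2 difference of each library from the mean of the 4 Wnt6 and Hmx1 libraries, by side and distance bin, with n peaks in each. Circles are Hoxa, squares Wnt6 and triangles Hmx1 deletion libraries; the widest gap between the Hoxa libraries (0.25 to 0.33) and the others (-0.01 to 0.03) is at 2 to 5 Mb on the low side.

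Of the 3 nearest peaks on each side, only that at the Skap2 promoter passed, and it fell. On the low side, the peak at chr6:52057191-52057438, 0.106 Mb away and 44.6 kb from Skap2, had 0.773 to 1.03 CPM with the Hoxa deletion and 0.590 to 1.69 CPM without it. At the promoter of Skap2, an adaptor protein of Src family kinases, the peak at chr6:52012131-52012923 had 6.58, 7.99 and 9.34 CPM in the Hoxa deletion. It had 12.0 and 10.7 CPM in the Wnt6 deletion and 12.2 and 11.6 CPM in the Hmx1 deletion. It fell by 0.51 on the log2 scale (SE 0.15, edgeR adjusted p = 0.0206), and the groups did not overlap. Within Skap2, the peak at chr6:51880996-51881255 had 0.764 to 0.940 CPM against 1.52 to 1.75 CPM, without overlap, but did not pass (log2 fold change -0.96, edgeR adjusted p = 0.107). The 3 nearest peaks of the high side, 15.1 to 101.5 kb from Hibadh, which encodes a mitochondrial enzyme of valine breakdown, had log2 fold changes of 0.25, 0.23 and 0.31, and none passed. Of the peaks that the distance limits left out, those closest to them had log2 fold changes of 0.16 (58.6 kb, low side), 0.54 (95.8 kb, high side), 0.15 (10010 kb, low side) and 0.36 (10435 kb, high side). The outermost peaks included had 0.13 on the low side and 0.11 on the high side.

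Genes listed for a zinc finger cluster lie between 3.54 and 4.34 Mb from the stretch on the low side. All of their peaks had more of the mark on average in the Hoxa deletion. Zinc finger proteins with a KRAB domain bind DNA, many of them at transposable elements, and recruit silencing factors. Of 13 listed genes 12 were found with a peak, and the strongest peak of 9 rose while none fell, with a peak shared by Zfp786 and Zfp398. All 25 peaks over these genes had a log2 fold change above 0, 16 rose, 3 of them called, and at 21 every Hoxa library lay above every other. Over all tested peaks 49.2% lay above 0, 4.32% rose, 0.566% were called higher and 9.09% had every Hoxa library above. The list was chosen with earlier results of these data known, and neighbouring peaks, such as those at Zfp783 and Zfp956, count separately. The median of the 25 was 0.71, whereas the other 106 peaks 2 to 5 Mb away on the low side had a median of 0.20, with 14 that rose. This difference was not tested. Against the Wnt6 deletion alone the median of the 25 was 0.51 and against the Hmx1 deletion alone 0.96, and the Wnt6 deletion itself was above the Hmx1 deletion by 0.26. Summed over the 25, the levels were 912 to 992 CPM in the Hoxa deletion, 787 and 717 CPM in the Wnt6 deletion and 679 and 702 CPM in the Hmx1 deletion. Genes of this family have near-identical copies, and how reads with several matches were treated is not given in the sources used here.

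At the start of Zfp783, annotated by RefSeq as a long noncoding RNA, the peak at chr6:47942681-47943809 had 41.7, 37.1 and 41.2 CPM in the Hoxa deletion. It had 20.6 and 21.6 CPM in the Wnt6 deletion and 15.2 and 19.0 CPM in the Hmx1 deletion. The Hoxa libraries were all higher, by 1.04 on the log2 scale (SE 0.11, edgeR adjusted p = 1.72e-09). Against the Wnt6 deletion alone the value was 0.91, under the fold change minimum. Next to it, over the promoter of Zfp956 printed above, the peak at chr6:47953172-47953700 had 22.3, 18.0 and 26.7 CPM, against 11.5 and 10.1 CPM in the Wnt6 deletion and 6.93 and 9.21 CPM in the Hmx1 deletion. This was the larger change of the pair, at 1.21 (SE 0.14, edgeR adjusted p = 1.51e-08). Between them, in Zfp783 and 0.699 kb from Zfp956, the peak at chr6:47951211-47952691 had 16.9 to 17.8 CPM against 7.77 to 9.30 CPM. Its log2 fold change of 1.01 stood just over the minimum and slipped below it in 6 alternatives.

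Other members of the cluster rose by less. The promoter peak of Zfp282, printed above, had a mean of 19.2 ± 1.1 CPM (SD, n = 3) where Hoxa was deleted, against 12.1 CPM for Wnt6 and 8.25 CPM for Hmx1, and rose by 0.93. A far stronger peak inside the same gene, at chr6:47904330-47906821, had 160, 142 and 151 CPM, 133 and 115 CPM, and 111 and 114 CPM in the same order of groups, and rose by only 0.35 (edgeR adjusted p = 0.0024). The strongest peaks of Zfp777 and Zfp775 rose by 0.87 and 0.65. That shared by Zfp786 and Zfp398 rose by 0.73, that of Repin1 by 0.50 and that of Krba1 by 0.49. The strongest peaks of Zfp212, Zfp746 and Zfp467 had 0.36, 0.30 and 0.10 and did not pass. Zfp467 carried the most of the mark per kb in the list, at 191 ± 7.05 CPM (SD, n = 3) against 172 and 183 CPM on average over 2549 bp, and the groups overlapped.

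**Figure D4:**
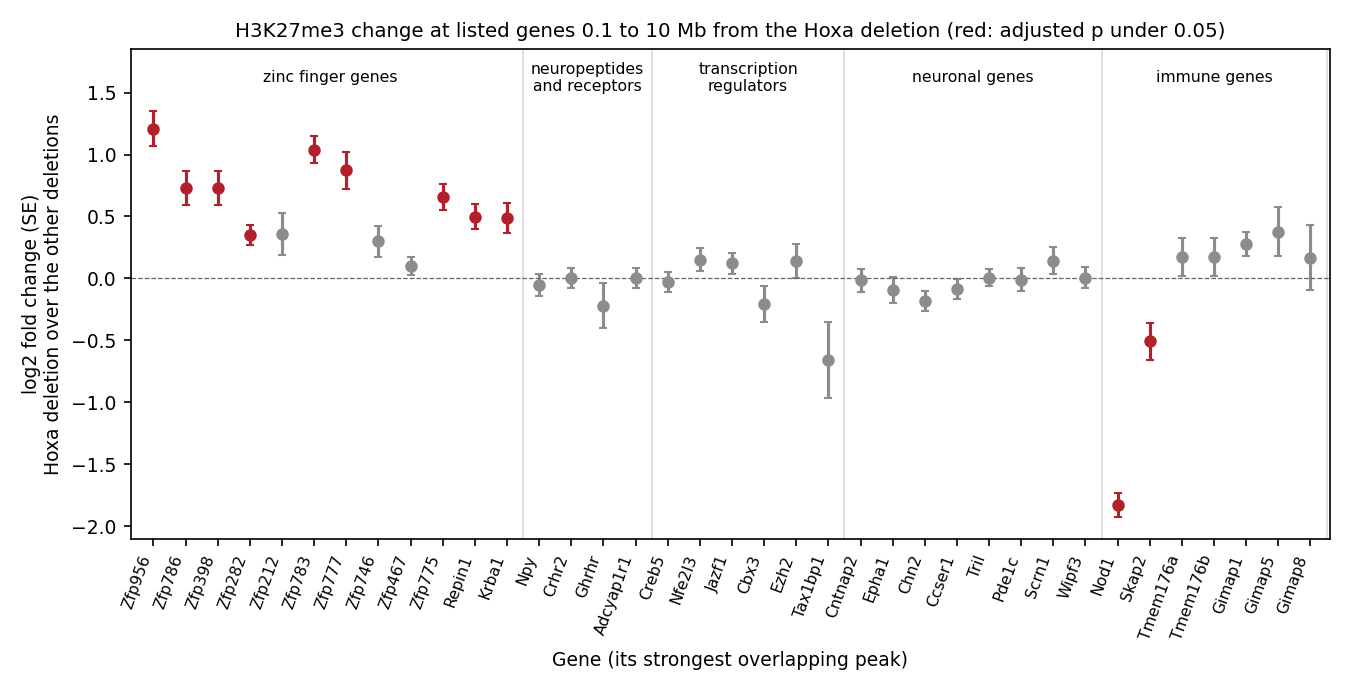
Log2 fold change with its standard error at the strongest peak of each listed gene, in 5 groups of genes (y axis, Hoxa deletion over the others; x axis, genes). Red marks an adjusted p under 0.05: 9 genes of the zinc finger list above 0, Nod1 and Skap2 below 0, and none among neuropeptide, regulator and neuronal genes. Zfp786 and Zfp398 share their strongest peak.

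Elsewhere on the low side, 2 weak peaks were called higher. The peak in Gpnmb, a membrane glycoprotein of melanocytes and macrophages, at chr6:49055296-49055620 had 2.12 to 3.29 CPM in the Hoxa deletion and 0.617 to 1.86 CPM in the others (log2 fold change 1.43, edgeR adjusted p = 0.00152). The one in Igf2bp3, an RNA-binding protein, at chr6:49213699-49214274 had 2.35 to 3.93 CPM against 1.28 to 2.03 CPM (1.21, edgeR adjusted p = 0.00203). In neither did the groups overlap, although the margin was small. The Gpnmb call was lost against the Hmx1 deletion alone (log2 fold change 1.10, edgeR adjusted p = 0.0872). The promoter peak of Atp6v0e2, a subunit of the vacuolar proton pump, rose by 0.72, and the dense peak at the start of 4921507P07Rik, 1.57 Mb away, rose by 0.53, with 66.3 to 73.9 CPM against 47.0 to 52.2 CPM. Picked after their values were seen, promoter peaks of Stk31 and Fam221a also rose, by 0.71 and 0.60, and peaks in the predicted genes Gm40365 and Gm36327 by 0.83 and 0.71. The only called peak beyond 5 Mb on this side, 1.29 kb from the olfactory receptor gene Olfr446 (chr6:42925651-42925943), had 0.353 to 0.535 CPM against 0.826 to 1.75 CPM. It fell by 1.56 (edgeR adjusted p = 0.0223) but was no longer called in 8 alternatives. A minimum mean count of 20 removed it before testing.

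Nod1, which encodes an intracellular sensor of bacterial peptidoglycan, had the largest fall on either side. Its peak at chr6:54942986-54945266, 2.67 Mb away on the high side, had 26.7, 27.6 and 31.6 CPM in the Hoxa deletion. It had 103 and 94.5 CPM in the Wnt6 deletion and 104 and 108 CPM in the Hmx1 deletion. Here the 2 other deletions were alike and the Hoxa libraries stood far below, at a log2 fold change of -1.83 (SE 0.10, edgeR adjusted p = 7.71e-21). At the Nod1 promoter printed above, the peak at chr6:54971888-54972718 had 9.29, 10.5 and 12.8 CPM, against 29.2 and 30.1 CPM in the Wnt6 deletion and 36.8 and 35.9 CPM in the Hmx1 deletion. It fell by 1.59 (SE 0.13, edgeR adjusted p = 1.12e-13). Another peak, 1.98 kb from Nod1 (chr6:54974655-54975074), had 2.51 to 3.17 CPM against 5.15 to 6.76 CPM and fell by 1.09. The promoter of Ggct, a neighbouring gene for an enzyme of glutathione turnover, had 9.18 ± 1.77 CPM (SD, n = 3) against 15.4 and 14.8 CPM and fell by 0.74 (edgeR adjusted p = 0.000339). All 4 peaks lay within 2.67 to 2.72 Mb of the stretch, and none of them had overlapping groups.

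**Figure D5:**
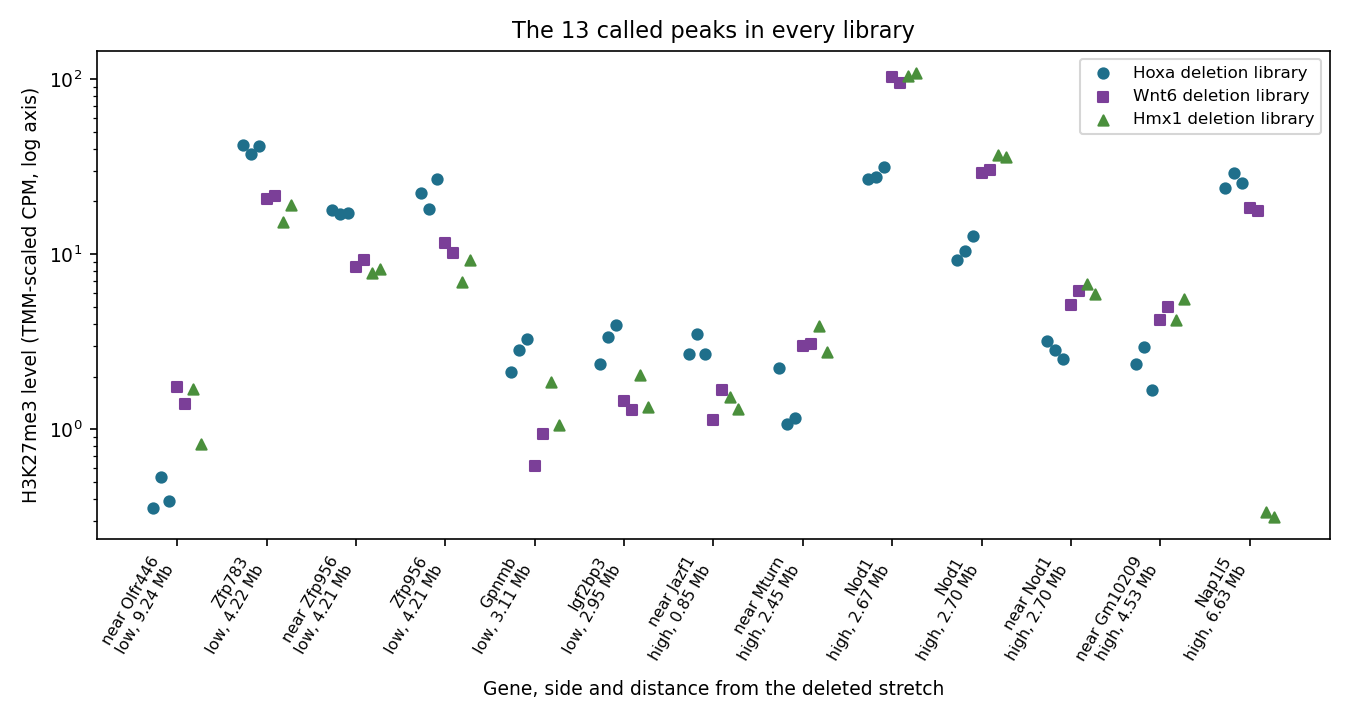
H3K27me3 level (CPM, log axis) of the 13 called peaks in every library, ordered from the far low side to the far high side (x axis: gene, side and distance). Circles are Hoxa, squares Wnt6 and triangles Hmx1 deletion libraries; at Nod1 the Hoxa libraries (26.7 to 31.6 CPM) lie far below the rest (94.5 to 108 CPM), and at Nap1l5 the Hmx1 libraries (0.315 and 0.338 CPM) lie far below both other deletions.

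The remaining called peaks of the high side were weak, except that over Nap1l5. A peak 15.9 kb from Mturn (chr6:54719781-54720340) had 1.07 to 2.23 CPM against 2.75 to 3.89 CPM and fell by 1.18, and one 7.35 kb from Gm10209 (chr6:56805773-56806770) had 1.68 to 2.94 CPM against 4.22 to 5.51 CPM and fell by 1.03. The peak 56.3 kb from Jazf1 (chr6:53124912-53125337) rose by 1.07, with 2.70 to 3.48 CPM against 1.13 to 1.67 CPM. Its call was lost against the Wnt6 deletion alone, on downsampling and without Hoxa replicate 2. Nap1l5, a gene expressed from the paternal copy, lies within Herc3, and its promoter peak at chr6:58906606-58907662 had 23.7, 29.2 and 25.6 CPM in the Hoxa deletion. It had 18.4 and 17.6 CPM in the Wnt6 deletion but 0.338 and 0.315 CPM in the Hmx1 deletion, which are 2 and 8 counts. The pooled log2 fold change of 1.43 (edgeR adjusted p = 0.00819) thus came mostly from the Hmx1 libraries, and against the Wnt6 deletion alone it was 0.56. The strongest peak of Herc3 outside that promoter had a log2 fold change of 0.19 and did not pass. Picked after its value was seen, the promoter peak of Plekha8 rose by 0.73, with 21.5 ± 0.58 CPM (SD, n = 3) against 13.6 and 12.2 CPM.

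The densest peaks of the high side differed little. Tril, a partner of Toll-like receptor 4 in the brain, had 318, 288 and 304 CPM in the Hoxa deletion, 310 and 279 CPM in the Wnt6 deletion and 316 and 305 CPM in the Hmx1 deletion. The groups overlapped throughout, at a log2 fold change of 0.01 (SE 0.07). Peaks of Crhr2 and Adcyap1r1, receptors for corticotropin-releasing factor peptides and for PACAP, both had 0.00 (SE 0.08), and that of Ccser1 had -0.09. Chn2, a Rac GTPase-activating protein, had 111 to 113 CPM against 119 to 136 CPM, without overlap, but its log2 fold change of -0.18 did not pass (edgeR adjusted p = 0.164). Of the tenth of the 480 peaks with the highest level per kb, 18 were on the high side and none of them passed, and 4 of the 30 on the low side rose. Over all tested peaks 4.32% rose and 4.20% fell, and among those over 6.34 CPM 8.01% rose and 6.42% fell. Counts this small do not set the 2 sides apart. These 30 had a median of 0.10. Among the 5 densest of the low side, Fam131b, 9.84 Mb away, had -0.03, and the peak 7.48 kb from Zfp775 had 0.39 and rose.

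Lists of other gene classes gave few changes. Over all tested peaks 4.32% rose and 4.20% fell, or 1.24% fell without chromosome 8. Most of these lists are too short to tell their counts from these shares, and neighbouring peaks of a gene count separately. Of 5 genes of neuropeptide signalling 4 had a peak, and none of their 17 peaks passed, although only 4 lay above 0 and the median was -0.21. Of all tested peaks 49.2% lay above 0. The 17 rest on few genes, with 7 peaks in Crhr2 and 7 in Adcyap1r1, and the strongest peaks of the 4 genes had a median of -0.03. Npy, the neuropeptide Y gene, is 2.34 Mb away on the low side and had 85.3 to 92.4 CPM against 85.1 to 100.3 CPM, a log2 fold change of -0.05 (SE 0.09). For neuronal genes, 8 of 10 had a peak and none of 59 peaks passed, with a median of -0.02, among them the strongest of Cntnap2, an adhesion protein of neurons, at -0.02. Of 7 genes listed as regulators of transcription 6 had a peak, and 1 of 32 peaks rose, a weak one in Creb5 at 0.83. Ezh2 itself had 0.14 and Cbx3, a heterochromatin protein, -0.21 at a peak shared with Hnrnpa2b1 of the housekeeping list. Tax1bp1, an adaptor protein that was also on the list of regulators, had -0.66, and none of these passed. Of 13 immune genes 7 had a peak, and 3 of 11 peaks fell, 2 in Nod1 and 1 in Skap2, while Gimap1, a GTPase of lymphocytes, had 0.28 (edgeR adjusted p = 0.0615). Of 12 housekeeping genes 10 had a peak, and 1 of 11 peaks fell, that of Ggct. Of 5 genes for channels and transporters 3 had a peak, of which that of Atp6v0e2 rose, and Aqp1 and Abcg2 had -0.07 and -0.14.

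Promoter peaks of the low side rose in 12 of 48 cases and those of the high side in 2 of 38. Over all tested peaks 4.32% rose and 4.20% fell, or 1.24% without chromosome 8. Among those over 6.34 CPM, 8.01% rose and 6.42% fell, and the promoter peaks had a median of 16.6 CPM. The count of the high side is near these shares. Between 2 and 5 Mb on the low side, the median was 0.36 at 27 promoter peaks and 0.30 at 104 others, so the excess was found at both. Of 42 promoter peaks with at least 20 CG dinucleotides in their window 10 rose and 3 fell, and of 44 with fewer 4 rose and 1 fell. By level, peaks over 6.34 CPM had a median of 0.17 on the low side, with 25 of 106 that rose (23.6%), and 0.00 on the high side, with 2 of 54 (3.70%). Of all tested peaks at that level 8.01% rose. Peaks under 2.33 CPM had medians of 0.04 and 0.03, and 2.27% and 2.78% of them rose, against 1.20% of all tested peaks at that level.

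Each other deletion was also used alone. Against the Wnt6 deletion, 6 of the 480 peaks were called higher, where the background was 0.462%, and 5 lower, where it was 0.772%, or 0.205% without chromosome 8. Against the Hmx1 deletion, 16 were higher, with a background of 0.909%, and 5 lower, with 0.885%, or 0.272% without chromosome 8. All 6 of the former and 12 of the 16 latter were on the low side. These comparisons share the Hoxa libraries. Between the Wnt6 and Hmx1 deletions, both of which keep Hoxa, 2 of the 480 peaks were called, where the background was 0.0887%. One was that over Nap1l5, and the other lay in Repin1 of the zinc finger list (chr6:48596348-48597874), with 45.3, 38.9 and 15.2 CPM on average in the Hoxa, Wnt6 and Hmx1 deletions.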

How the data were processed

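Cut&Tag with an H3K27me3 antibody was carried out on mESCs of 3 deletions. The deposited table holds raw counts per peak, not normalized, for 7 H3K27me3 libraries, made by the authors from reads or fragments on 1 peak list. The submitters' processing notes name Trimmomatic, Bowtie2, SAMtools, Picard, MACS2, deepTools and mm10, without versions. Their order, the libraries behind the peak list, duplicate removal and the treatment of multiple matches are not given in the sources used here. The 7 IgG libraries were not analysed here, and no background was subtracted.

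Counts were fitted in R 4.3.3 with edgeR 4.0.16 (glmQLFit and glmQLFTest, filterByExpr by deletion, TMM factors), which tested 74441 of 74458 peaks, and p-values were adjusted over all of them. Standard errors were derived from the F statistic. DESeq2 1.42.0, the tool of the study, with limma 3.58.1 installed, was an alternative. Plots used Python 3.11.15, pandas 2.3.3 and matplotlib 3.10.9. The stretch allowed peaks under 10 counts in the others without ending a run. Log2 CPM per library had a prior count of 2. Genes and promoter windows came from RefSeq tables of GRCm38.p6. Peak coordinates are as deposited, and whether their start counts from 0 or 1 is not stated.

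The peaks, gene lists and tests were chosen with earlier results of these data known. Named peaks are all that were called, the 3 nearest and the 5 densest (CPM per kb) on each side, and the strongest over each listed gene. Of the listed genes, Zfp767 was not matched and Nptxr and Slc4a2 lie on other chromosomes, and 1 further gene is not reported here. An exact permutation test of summed CPM was planned and run, but its p, for a sum over peaks chosen with results known, is not given. With 35 assignments of the libraries it could not reach a p under 0.05. The scripts were checked on simulated counts. Replicate numbers were not taken to pair the libraries: correlations of the difference between replicates 2 and 1 were 0.054 (Hoxa and Wnt6), 0.016 (Hoxa and Hmx1) and -0.013 (Wnt6 and Hmx1) over all tested peaks, and 0.105, 0.152 and -0.029 over the 480, so not every pair was above 0.1. Alternatives were RLE factors, totals alone, TMM without chromosome 8, no filter, a minimum mean count of 20, downsampling to the smallest library, each other deletion alone, 3 terms for deletions, a replicate block, each library left out, members 0.2 to 10 Mb or 0.1 to 5 Mb away, DESeq2, no fold change minimum, means, and the strongest peak of each run within 10 kb.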

Additional observations from a re-analysis of the deposited data

How the results depend on the processing

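Over all alternatives, 413 values were computed. Of those for single called peaks, 204 kept their direction and call, 29 kept their direction and were no longer called, and none reversed. The count of called peaks, 13 (7 higher, 6 lower), became 50 (39 higher, 11 lower) with no fold change minimum, and 21 (16 higher) against the Hmx1 deletion alone. With the replicate block it was 15 (11 higher, 4 lower), and in DESeq2 12 of the 13 were called. Leaving out 1 library gave 11 to 18 called (5 to 13 higher, 4 to 6 lower). The median log2 fold change of all peaks, 0.08, became 0.0540 with TMM factors without chromosome 8, 0.126 for peaks 0.1 to 5 Mb away, 0.0596 for the strongest peak of each of 243 runs, and 0.0584 to 0.0979 with 1 library left out. For the low side it was 0.244 at 0.1 to 5 Mb, where the summed CPM gave 0.263, and 0.13 to 0.19 with 1 library left out. For the high side it was 0.0050, and -0.0235 with TMM factors without chromosome 8, 0.0289 against the Hmx1 deletion alone and -0.0130 to 0.0264 with 1 library left out. The cause of these shifts was not tested. The calls lost most often were those near Olfr446 (8 alternatives), near Zfp956 (6) and near Gm10209 (5), all weak or close to the fold change minimum. The peak near Olfr446 was also removed before testing by the minimum mean count of 20. The smallest library had a median of 22.5 counts per peak, and downsampling all libraries to its total called 12 peaks (8 higher, 4 lower).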
